A study of Mus musculus with 15 samples.

Results

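The distal part of mouse chromosome 4 holds a dense cluster of zinc-finger genes, and its expression was followed in A20 cells and in 4 Foxp1-mutant clones derived from them. Members were the genes whose lowest start lay in a fixed interval of chromosome 4 (mm10) and that had at least 50 counts summed over all 15 libraries. The first of them, Gm13080, starts at position 143611658 and the last, Angptl7, at 148495183. Zfp979, which the selection names, had 49 counts and was kept. This gave 55 of the 41388 genes in the count tables, from 185 genes annotated in the interval, of which 75 had no count in any library. Gm13223 and Gm21411 lay just inside the minimum with 55 counts each, and the highest count below it after Zfp979 was 40. The summed counts therefore chose the members, and Zfp990 and Zfp979 were named with their levels in these libraries already known, so their values are given as a description without a test. The same holds for Zfp980, Gm21411, Zfp982 and Zfp981, which reached the minimum only through the line in which they were highest. Without it they held 1, 2, 15 and 48 counts.

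RNA was sequenced from A20, a BALB/c B-cell lymphoma line, as unedited parental cells labelled WT, and from 4 CRISPR lines, each of them a single-cell clone. E6.1 and E6.2 are labelled with a mutation in Foxp1 exon 6 and E7.1 and E7.2 with a mutation in Foxp1 exon 7. Each line was represented by 3 libraries taken at separate passages, so a difference between a clone and the parental cells cannot be told apart from a difference between clones of any kind. Library totals ran from 26328054 to 39181530 counts. Foxp1 averaged 138.3 ± 32.7 normalized CPM (counts scaled to library size; SD, n = 3) in parental cells, and its mean was 104 and 106 in the exon 6 clones, E6.1 and E6.2, against 56.8 in clone E7.1 and 43.0 in clone E7.2. The B-cell markers were present, since 5 of 5 B-cell genes were detected in every line with a summed level of 273.7 to 508.5 RPKM, which is CPM per kilobase of exon, while T-cell, myeloid, fibroblast and embryonic stem cell lists summed to at most 2.42 RPKM in any library.

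Krüppel-associated box (KRAB) zinc-finger proteins bind DNA through tandem C2H2 fingers, and many of them recognise sequences of transposable elements. Their KRAB domain recruits Trim28, which in turn brings the histone methyltransferase Setdb1 and other silencing factors. The family grows by local duplication, so that neighbouring genes in a cluster often have near-identical sequence. The chromosome 4 cluster is among the large clusters of such genes in the mouse, and is known to differ in gene content between strains. The reads here came from a BALB/c line and were placed on the C57BL/6J reference.

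Of the 55 members, 12 were zinc-finger genes, namely Zfp990, Gm13212, Zfp980, Zfp981, Zfp989, Zfp991, Gm13147, Zfp978, Zfp982, Zfp979, Zfp984 and Zfp933. All 12 also held a KRAB-like stretch in their annotated transcripts. Gm21411, a short protein-coding gene, held a KRAB-like stretch with no finger. The remaining members were 21 pseudogenes without fingers, 2 long non-coding RNAs and 19 further protein-coding genes, among them Mtor, the kinase of the mTOR complexes, Mfn2, a mitochondrial fusion protein, and Fv1, a restriction factor against murine leukaemia virus. A further 11 zinc-finger genes of the interval stayed below the minimum, and 2 of them, Rex2 and Zfp992, had no count at all.

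Promoter sequence was held for 7 of the 12 zinc-finger members in the RefSeq table (build GRCm38.p6). The 250 bases before the annotated start are shown for Zfp980 and Zfp982, which were high in E6.2, for Zfp979 and Zfp981, whose counts were highest in parental cells, and for Zfp984, the most abundant member. Each is written 5′ to 3′ on the strand of its gene, and capitals mark matches to CCAAT or GGGCGG on either strand, which overlap where ATTGG, the reverse complement of CCAAT, runs into GGGCGG. The windows are chr4:145670447-145670696 (plus strand) for Zfp980, chr4:147492167-147492416 (plus strand) for Zfp982, chr4:147642509-147642758 (minus strand) for Zfp979, chr4:146514670-146514919 (plus strand) for Zfp981 and chr4:147809789-147810038 (minus strand) for Zfp984. The starts are those of RefSeq and can differ from the gene bounds in the count tables, so that the Zfp981 window lies inside the bounds given below for that gene and those of Zfp980 and Zfp979 run a few bases into their own genes.
Zfp980: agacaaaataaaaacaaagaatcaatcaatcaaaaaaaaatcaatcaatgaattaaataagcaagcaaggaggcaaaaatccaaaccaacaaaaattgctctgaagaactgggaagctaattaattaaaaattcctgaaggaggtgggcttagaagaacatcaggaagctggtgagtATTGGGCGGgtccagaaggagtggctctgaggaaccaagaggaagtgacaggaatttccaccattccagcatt
Zfp982: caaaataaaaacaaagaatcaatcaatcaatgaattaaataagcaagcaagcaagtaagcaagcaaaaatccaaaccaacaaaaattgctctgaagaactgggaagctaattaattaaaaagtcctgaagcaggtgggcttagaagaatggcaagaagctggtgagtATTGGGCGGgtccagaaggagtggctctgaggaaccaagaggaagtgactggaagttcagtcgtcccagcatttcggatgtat
Zfp979: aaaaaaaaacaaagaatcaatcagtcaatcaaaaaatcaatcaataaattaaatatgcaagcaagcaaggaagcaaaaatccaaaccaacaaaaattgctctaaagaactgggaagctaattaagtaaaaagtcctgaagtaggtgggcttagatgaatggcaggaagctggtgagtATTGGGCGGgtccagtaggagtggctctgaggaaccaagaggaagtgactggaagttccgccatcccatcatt
Zfp981: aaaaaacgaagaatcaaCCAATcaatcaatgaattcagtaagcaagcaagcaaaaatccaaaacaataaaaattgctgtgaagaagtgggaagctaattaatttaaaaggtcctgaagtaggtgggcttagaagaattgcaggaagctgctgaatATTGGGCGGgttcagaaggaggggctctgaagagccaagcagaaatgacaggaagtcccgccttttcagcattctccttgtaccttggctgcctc
Zfp984: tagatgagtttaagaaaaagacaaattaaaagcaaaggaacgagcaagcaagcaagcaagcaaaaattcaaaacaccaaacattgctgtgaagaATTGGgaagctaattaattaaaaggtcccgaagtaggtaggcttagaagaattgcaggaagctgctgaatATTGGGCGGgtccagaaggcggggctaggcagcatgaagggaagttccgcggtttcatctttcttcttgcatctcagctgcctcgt

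The promoters of Zfp980 and Zfp979 shared 90.8% of their 250 aligned bases, those of Zfp982 and Zfp979 shared 88.8%, and those of Zfp980 and Zfp982 shared 87.6%. Zfp980 and Zfp982 were read mainly in E6.2 and Zfp979 mainly in parental cells. The selection used these counts for all 3 genes, so the contrast is a description. Its relation to promoter sequence was not tested. Gm13212 and Zfp984 shared 90.8%, at mean levels of 0.559 and 28.1 RPKM over the 15 libraries. The Zfp933 promoter stood apart with 57.6% to 60% identity to the other 6. The joined letters ATTGGGCGG occurred in 6 of the 7 promoters, all but that of Zfp933, against 0.234% of 32536 RefSeq promoter windows of the same length. These 6 promoters shared 74% to 90.8% of their bases with one another, so they are not 6 independent occurrences. This joined form was looked up after the sequences had been seen. Separately, CCAAT occurred in 33.8% and GGGCGG in 33.0% of all windows. TATAAA, present in 12.3% of all windows, and TGTTTAC, a forkhead core present in 3.17%, were found in none of the 7. CpG pairs numbered 1 in Zfp980, 2 in Zfp979, 3 each in Zfp981 and Zfp982, 4 in Gm13212, 7 in Zfp984 and 8 in Zfp933, beside a median of 6 over all windows.

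**Figure D1:**
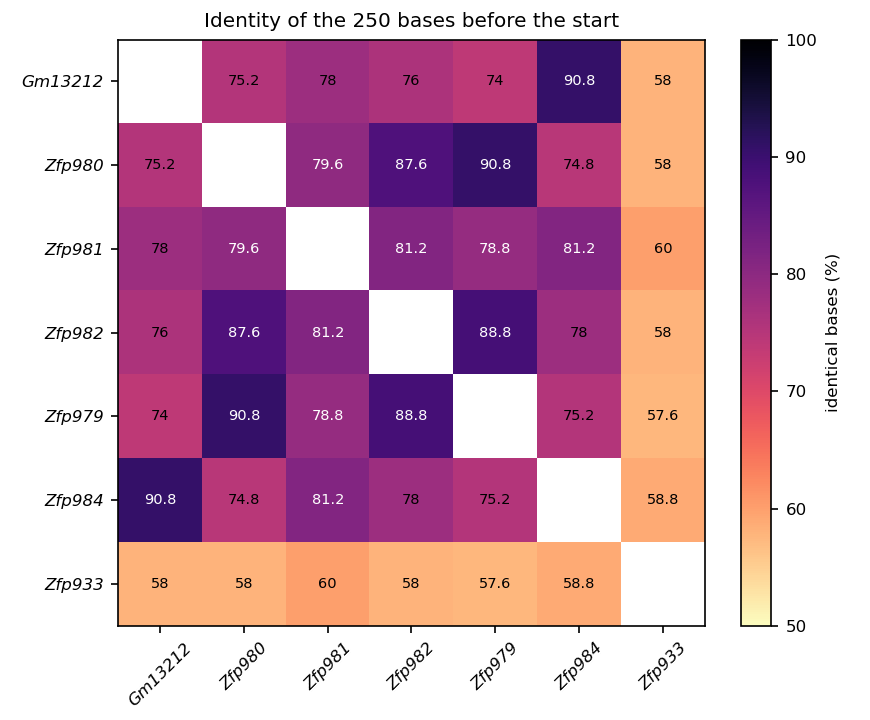
Percent of identical bases between the 250-base promoter windows of the 7 zinc-finger members with a RefSeq entry, by global alignment, with the colour scale from 50% to 100%. Zfp980, Zfp982 and Zfp979 share 87.6% to 90.8% with each other, Gm13212 and Zfp984 share 90.8%, and Zfp933 shares at most 60% with any.

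Levels among the zinc-finger members were very uneven. Zfp984 took 81.3% of the 51770 counts that fell on zinc-finger members and Zfp933 took 14.1%. On the per-length scale their mean levels over the 15 libraries were 28.1 and 3.36 RPKM, and no other zinc-finger member exceeded 0.559 RPKM. The others are therefore described by their counts in each library, and intervals on ratios of summed counts cover counting error only. Of the 55 members, 51 passed the filter on low counts, including all 12 zinc-finger members. Gm13080, Gm13223, Gm13148 and Angptl7 did not pass and have no test.

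**Figure D2:**
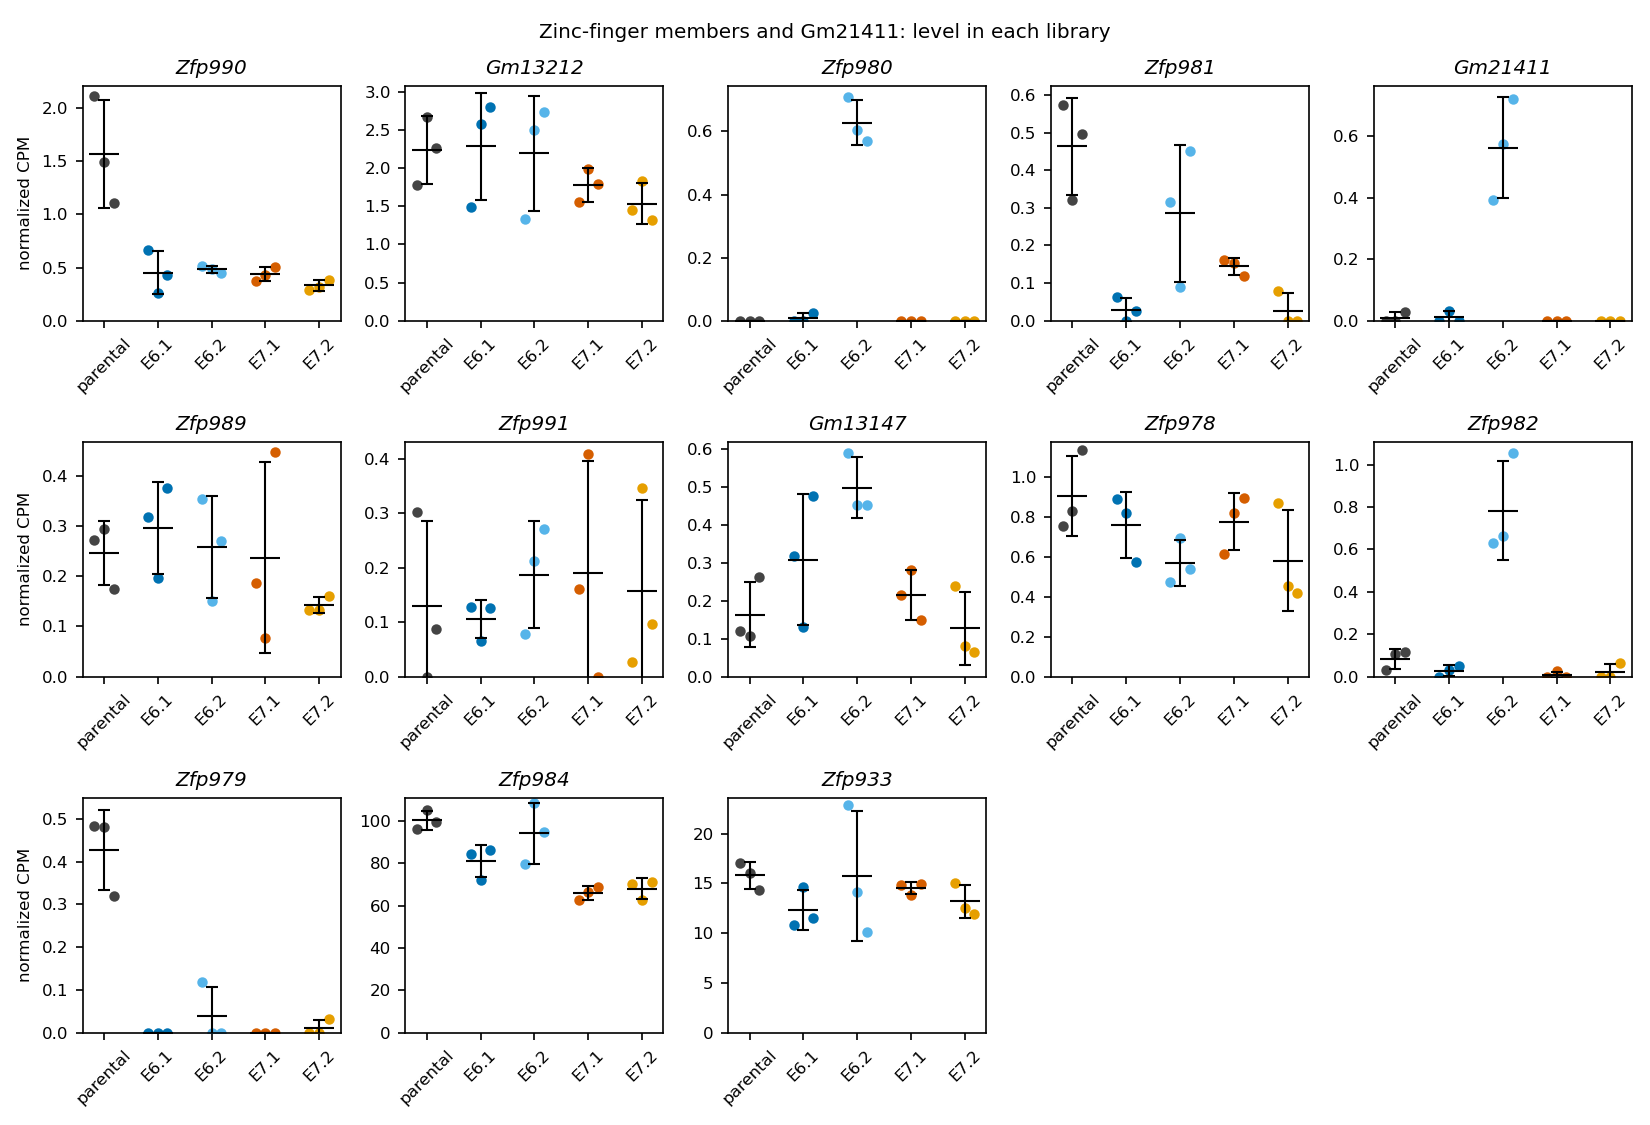
Normalized CPM of the 12 zinc-finger members and Gm21411 in each of the 15 libraries, with a linear axis from 0 in each panel; points are libraries, horizontal bars are means of 3 libraries and whiskers are SD, clipped at 0. Zfp990 and Zfp979 are highest in the parental libraries, Zfp980, Gm21411 and Zfp982 are high in the E6.2 libraries, and Zfp984 is lowest in E7.1 and E7.2.

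Zfp990 (ENSMUSG00000078503, chr4:145510759-145539188, plus strand), a protein-coding gene with 13 C2H2 patterns, had its highest counts in parental cells, with 70, 56 and 38 counts in the 3 libraries. E6.1 had 21, 8 and 17, E6.2 had 13, 16 and 15, E7.1 had 14, 17 and 17, and E7.2 had 11, 12 and 12. The lowest parental library lay above every clone library. The mean level was 1.57 ± 0.510 CPM (SD, n = 3) in parental cells and 0.451 CPM for clone E6.1, 0.482 for E6.2, 0.439 for E7.1 and 0.332 for E7.2. Fitted log2 fold changes against parental cells were -1.79, -1.70, -1.84 and -2.24 in that order. The ranges of the clones overlapped in every pair but E6.2 and E7.2, where the highest E7.2 library reached 0.385 CPM and the lowest E6.2 library 0.451 CPM. In bulk RNA, fewer cells expressing a gene and less RNA per cell cannot be told apart. Zfp990 shared little sequence with other genes: 88.4% of its 75-base transcript windows occurred in no other gene.

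Zfp979 (ENSMUSG00000066000, chr4:147611937-147642513, minus strand) had 16, 18 and 11 counts in the parental libraries. The 12 clone libraries held 4 counts in all, of which 3 were in replicate 1 of E6.2 and 1 in replicate 3 of E7.2. No Zfp979 read was counted in any library of E6.1 or E7.1. Against a floor of 3 counts over the group, the parental level was at least 14.6-fold higher than in E6.1 and at least 15.7-fold higher than in E7.1. The ratio to E6.2 was 13.1 (95% interval 4.21 to 66.0), and that to E7.2 was 45.7 (7.80 to 1845). Across the 15 libraries the log2 CPM values of Zfp979 and Zfp990 had a Pearson r of 0.890, given as a description since both were chosen for their parental levels.

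Genes outside the interval whose log2 CPM followed that of Zfp990 most closely over the 15 libraries were Phyhip (r = 0.922), Ptprg (0.917), Meioc (0.897) and Iglv2 (0.892). Each had a higher mean in parental cells than in any clone. Iglv2, an immunoglobulin lambda variable segment, averaged 18.6 CPM in parental cells and 0.130 to 0.340 CPM in the clones, and Phyhip averaged 2.97 CPM and 0.0273 to 0.152 CPM. These 4 were picked by the correlation itself and carry no test.

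Zfp980, Gm21411 and Zfp982 formed a contrasting set, with counts almost wholly in clone E6.2. Zfp980 (ENSMUSG00000058186, chr4:145670685-145704441, plus strand), a KRAB gene with 13 finger patterns, had 18, 20 and 19 counts in the E6.2 libraries, 1 count in replicate 3 of E6.1, and none in parental cells, E7.1 or E7.2. Gm21411 (ENSMUSG00000045699, chr4:146892406-146909590, minus strand) had 10, 19 and 24 counts in E6.2, 1 count in replicate 3 of parental cells, 1 in replicate 2 of E6.1, and none in E7.1 or E7.2. Zfp982 (ENSMUSG00000078496, chr4:147492417-147513486, plus strand), with 7 finger patterns, had 16, 22 and 35 counts in E6.2 beside 1, 4 and 4 in parental cells, 0, 1 and 2 in E6.1, 0, 1 and 0 in E7.1, and 0, 0 and 2 in E7.2. For all 3 genes, every E6.2 library lay above every library of the other 4 lines.

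Zfp980 was at least 21.7-fold higher in E6.2 than in parental cells, at least 22.8-fold higher than in E7.1 and at least 22.1-fold higher than in E7.2. Its ratio to E6.1 was 63.4 (95% interval 10.9 to 2549). These counts also brought the gene into the interval's list, so the differences carry no test.

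Gm21411 was 60.6-fold higher in E6.2 than in parental cells (95% interval 10.4 to 2438) and 59.0-fold higher than in E6.1 (10.1 to 2373), and at least 21.2-fold and 20.5-fold higher than in E7.1 and E7.2. They are likewise a description, since 53 of its 55 counts lay in E6.2.

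Zfp982 was 9.27-fold higher in E6.2 than in parental cells (95% interval 4.63 to 21.1 from summed counts). Its level in E6.2 exceeded that in E6.1 by 27.1-fold (8.91 to 134.3), that in E7.1 by 87.6-fold (15.2 to 3505) and that in E7.2 by 42.4-fold (11.3 to 356.7). E6.2 held 73 of its 88 counts. In log2 CPM over the 15 libraries Zfp980 correlated with Gm21411 at r = 0.971 and with Zfp982 at r = 0.925, which describes the same 3 E6.2 libraries each time.

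The 3 genes were not neighbours. Zfp980 starts 160 kb, Gm21411 1.38 Mb and Zfp982 1.98 Mb beyond the start of Zfp990, and between them lie the zinc-finger members Zfp981, Zfp989, Zfp991, Gm13147 and Zfp978. Of these, the last 4 passed no edgeR test between E6.2 and any other line, beside 1.17% to 16.9% of all genes. Gm26880, a long non-coding RNA that also lies between them, had a log2 difference of -1.04 between E7.1 and E6.2 (edgeR adjusted p = 0.0233), in a comparison where 16.9% of all genes were called. They also differed in how far reads can be placed. Of their 75-base windows, 95.1% occurred in no other gene for Zfp982, 51.2% for Gm21411, which shared 35.2% with Zfp989, and 43.9% for Zfp980, which shared 46.6% with Rex2 and 42.8% with Zfp600. Rex2 had no count and Zfp600 had 1 count over all libraries. Zfp989, with which Gm21411 shared the most windows, had 9, 5 and 9 counts in E6.2 and 9, 11 and 6 in parental cells. Below the minimum, Zfp985 had 12 of its 16 counts in E6.2 and Znf41-ps had all of its 6 counts there. The part of shared sequence in these values was not tested.

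Zfp981 (ENSMUSG00000056300, chr4:146502027-146539395, plus strand), with 7 finger patterns, was detected in parental cells at 19, 12 and 17 counts. E6.2 had 8, 3 and 15, E7.1 had 6, 6 and 4, E6.1 had 2, 0 and 1, and E7.2 had 3, 0 and 0. Parental libraries did not overlap those of E6.1, E7.1 or E7.2 but overlapped those of E6.2. The ratio of parental cells to E6.1 was 15.6 (95% interval 5.02 to 78.2) and to E7.2 16.3 (5.24 to 81.6). Parental cells held 48 of its 96 counts, so these ratios are a description without a test.

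Zfp984 (ENSMUSG00000078495, chr4:147753974-147809788, minus strand), a KRAB gene with 11 finger patterns and the dominant zinc-finger transcript of the interval, had 3186, 3943 and 3417 counts in parental cells. It had 2658, 2208 and 3451 in E6.1, 2021, 3580 and 3145 in E6.2, 2333, 2603 and 2313 in E7.1, and 2656, 2341 and 2225 in E7.2. In normalized levels the order was parental (100.4 ± 4.53 CPM, SD, n = 3), E6.2 (94.1 ± 14.4), E6.1 (81.0 ± 7.63), E7.2 (68.0 ± 4.86) and E7.1 (66.0 ± 3.29). All parental libraries, at 96.3 to 105.3 CPM, lay above all libraries of E6.1, E7.1 and E7.2, while E6.2 ranged from 79.6 to 108.3 CPM. The log2 fold change in E7.1 was -0.61 (SE 0.127, edgeR adjusted p = 0.0398 by the quasi-likelihood test, adjusted over 13904 genes by the Benjamini-Hochberg procedure), and that in E7.2 was -0.56 with an edgeR adjusted p of 0.103. Neighbours in this order did not pass the test between them, and of the 10 pairs of lines E7.1 differed from parental cells and from E6.2, at -0.51 log2 units (edgeR adjusted p = 0.0185).

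The Zfp984 calls were marginal. The difference between E7.1 and parental cells was lost without any 1 of parental replicates 2 and 3, any E6.1 or E7.1 library, or E7.2 replicate 1 or 2 (edgeR adjusted p between 0.0566 and 0.223), and that between E7.1 and E6.2 without E6.2 replicate 2 or any E7.1 library (edgeR adjusted p between 0.0508 and 0.0814). With no filter on low counts both were lost (edgeR adjusted p = 0.0714 and 0.0699), and with the replicate number as a block the first gave 0.0506. For E7.2 against parental cells, DESeq2 gave an adjusted p of 0.00306 and edgeR gave 0.0457 without E6.2 replicate 3. Of the windows of Zfp984, 59.1% occurred in no other gene and 35.9% were shared with Gm13212, and 9.68% of its exonic bases were overlapped by the long non-coding RNA Gm20707.

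The other 6 zinc-finger members, Gm13212, Zfp933, Zfp978, Gm13147, Zfp989 and Zfp991, passed no edgeR test at an adjusted p below 0.05 in any comparison. The share of all genes called ran from 0.295% for E7.2 against parental cells to 16.9% between E7.1 and E6.2. Zfp933 (ENSMUSG00000059423), with 12 finger patterns and 99.9% unique windows, averaged 15.8 ± 1.35 CPM in parental cells, 15.7 ± 6.53 in E6.2, 14.6 ± 0.607 in E7.1, 13.2 ± 1.65 in E7.2 and 12.3 ± 2.03 in E6.1 (SD, n = 3), and the ranges of neighbours in this order overlapped. Its counts were 564, 602 and 494 in parental cells, 341, 447 and 460 in E6.1, 582, 469 and 337 in E6.2, 556, 543 and 501 in E7.1, and 571, 472 and 373 in E7.2.

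Gm13212, which carries 20 finger patterns, had 59, 100 and 78 counts in parental cells, 47, 79 and 112 in E6.1, 34, 83 and 91 in E6.2, 58, 78 and 60 in E7.1, and 55, 69 and 41 in E7.2, with overlapping lines throughout. Zfp978 had 25, 31 and 39 counts in parental cells, 28, 25 and 23 in E6.1, 12, 23 and 18 in E6.2, 23, 32 and 30 in E7.1, and 33, 17 and 13 in E7.2. Its E6.2 libraries, at 0.472 to 0.696 CPM, lay below the parental ones, which began at 0.756 CPM, with a log2 fold change of -0.66 (edgeR adjusted p = 0.469).

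Gm13147, annotated as a transcribed pseudogene with 3 finger patterns, had 15 counts in each E6.2 library, beside 4, 4 and 9 in parental cells, 10, 4 and 19 in E6.1, 8, 11 and 5 in E7.1, and 9, 3 and 2 in E7.2. Its log2 fold change in E6.2 was 1.59 (edgeR adjusted p = 0.276), with E6.2 libraries above all parental ones. Zfp989 had 9, 11 and 6 counts in parental cells, 10, 6 and 15 in E6.1, 9, 5 and 9 in E6.2, 7, 3 and 15 in E7.1, and 5 in each E7.2 library. Zfp991, of whose windows 24.1% were unique, ranged from 0 to 16 counts within E7.1 alone.

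**Figure D3:**
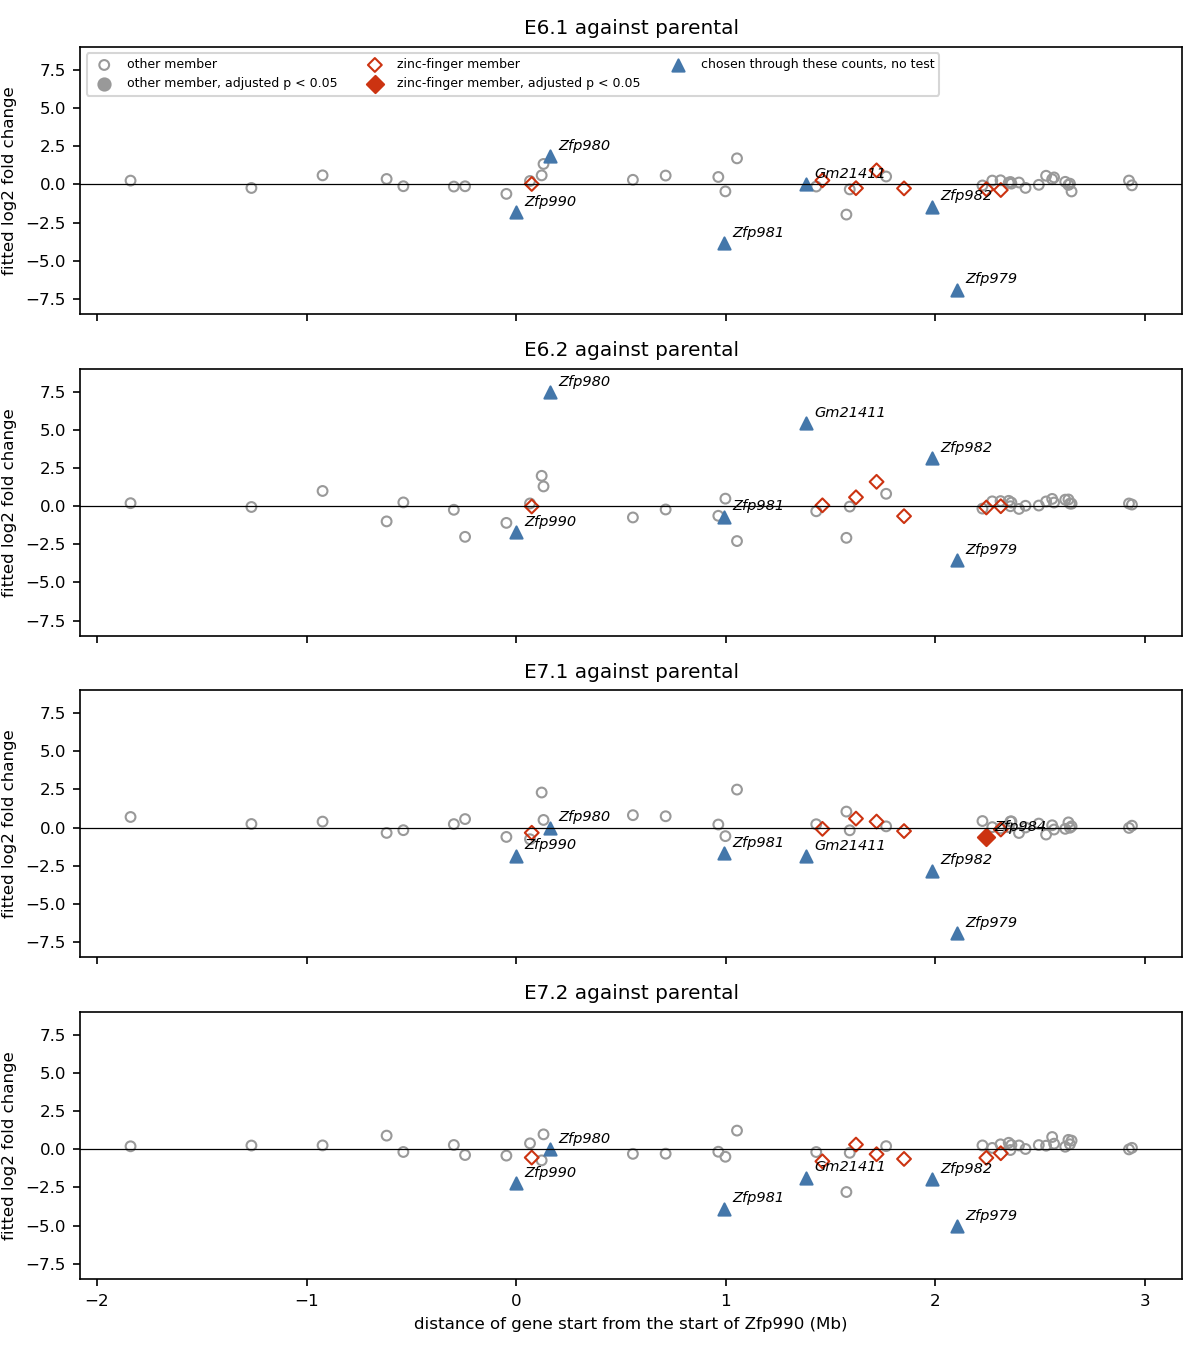
Fitted log2 fold change of the 51 tested members in each clone against parental cells (y axis) by the distance of the gene start from that of Zfp990 in Mb (x axis). Diamonds are zinc-finger members, circles other members, filled symbols passed edgeR's adjusted p of 0.05, and triangles are Zfp990, Zfp979, Zfp980, Gm21411, Zfp982 and Zfp981, shown without a test; fold changes of genes with 0 counts in a line depend on the prior count. Zfp984 is the filled point in E7.1, and no point is filled in the other 3 panels.

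Counts of calls over the interval were made without Zfp990 and Zfp979 and without Zfp980, Gm21411, Zfp982 and Zfp981, which left 45 tested members, 7 of them zinc-finger genes. Against parental cells, Zfp984 was called in E7.1, lower, as were 0.82% of all genes, and no other of the 45 was called in any clone by edgeR at an adjusted p below 0.05. Over all 13904 genes tested, 0.324% were called for E6.1, 1.17% for E6.2, 1.22% for E7.1 and 0.295% for E7.2. Of the 45, 1, 6, 2 and 5 had an unadjusted p below 0.05 in the same order of clones, beside 6.71%, 13.1%, 20% and 13.3% of all genes. DESeq2 called none in E6.1 or E6.2, Zfp984 and Mfn2 in E7.1, and Zfp984 in E7.2, beside 1.11%, 2.86%, 8.34% and 1.83% of all genes. With the 6 genes included, edgeR called 0, 3, 3 and 1 of 51, of which nothing can be read because the selection used these counts. A median fold change over all 51 would take in these 6 genes and is not given. Without them, medians are given for 2 groups of members, in the same order of clones. The 18 tested protein-coding members without fingers, Gm21411 aside, had median log2 fold changes of 0.05, 0.16, 0.02 and 0.26. For the 18 tested pseudogenes without fingers they were 0.29, -0.05, 0.32 and 0.20, and over all genes -0.00, 0.06, -0.02 and 0.00. Whether these medians differ was not tested.

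In the edgeR test over the 5 lines together, which takes no line as the reference, 2 of these 45 members passed, or 4.44%, beside 6.28% of all genes tested. They were Dhrs3 (adjusted p = 0.0155) and Zfp984 (0.0250), that is, 1 of 38 members without fingers and 1 of 7 with them. Zfp984 was lost from this list without any 1 of parental replicates 2 and 3, E6.1 replicates 1 and 3, the E7.1 libraries, or E7.2 replicates 1 and 2 (edgeR adjusted p between 0.0558 and 0.0737) and with no filter on low counts (0.0569).

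Between pairs of clones, Dhrs3 was the 1 member of the 45 called between E6.2 and E6.1, beside 1.24% of all genes, and between E7.2 and E6.2, beside 2.24%. Between E7.1 and E6.2, Zfp984, Tnfrsf8, Gm26880 and Mad2l2 were called, or 8.89% of the 45 beside 16.9% of all genes. No member was called between E7.1 and E6.1, E7.2 and E6.1, or E7.2 and E7.1, where 3.24%, 0.352% and 0.59% of all genes were called by edgeR.

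Dhrs3, which encodes a retinaldehyde reductase, passed the test over the 5 lines. It had 116, 103 and 87 counts in E7.2, 45, 87 and 67 in E6.1, 55, 62 and 45 in parental cells, 49, 47 and 38 in E7.1, and 17, 21 and 33 in E6.2. The mean was 2.87 ± 0.172 CPM in E7.2 and 0.766 ± 0.197 CPM in E6.2 (SD, n = 3), with all E6.2 libraries below all others. The log2 difference of E7.2 over E6.2 was 1.90 (SE 0.310, edgeR adjusted p = 0.00420) and held without any single library, whereas no clone differed from parental cells by this test. The difference between E6.2 and E6.1 was -1.36 (edgeR adjusted p = 0.0473) and was lost without any 1 of 12 libraries, namely all of parental, E7.1, E6.1 replicates 2 and 3, and replicates 1 and 2 of E6.2 and E7.2 (edgeR adjusted p between 0.0589 and 0.256). It was also lost with DESeq2's size factors (0.0533) and with no filter on low counts (0.0745).

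Among the protein-coding members without fingers, 18 were tested apart from Gm21411, Dhrs3 included. None was called against parental cells by edgeR, beside 0.295% to 1.22% of all genes. The log2 fold changes of these 18 ran from -0.46 to 0.57 in E6.1 and from -2.02 to 0.43 in E6.2. In E7.1 they ran from -0.45 to 0.56 and in E7.2 from -0.38 to 0.89. The lowest value belonged to Tnfrsf8, the gene of the lymphocyte receptor CD30, whose counts varied widely within lines. It had 640, 298 and 229 counts in parental cells, 257, 453 and 333 in E6.1, 96, 117 and 37 in E6.2, 460, 951 and 453 in E7.1, and 430, 506 and 38 in E7.2, where replicate 3 lay far below the other two. Mtor had between 1995 and 3084 counts and Mfn2 between 1345 and 2517 over the 15 libraries. In normalized levels all E7.1 libraries of Mfn2, at 57.9 to 67.4 CPM, lay above the parental ones, at 45.5 to 46.9 CPM. The lowest libraries of E6.2 and E7.2, at 48.9 and 47.2 CPM, also did, while E6.1 overlapped parental cells. The log2 fold change of Mfn2 in E7.1 was 0.41 (edgeR adjusted p = 0.1155), and DESeq2 called it there, beside 8.34% of all genes.

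**Figure D4:**
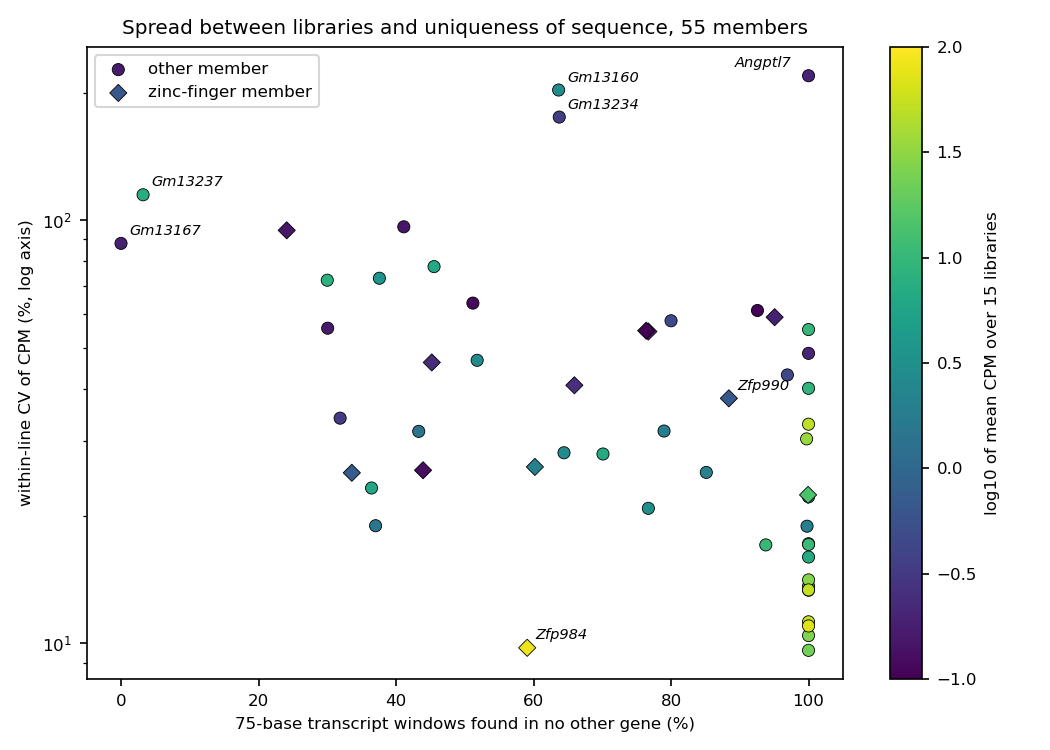
Coefficient of variation of CPM between libraries of the same line (y axis, percent, log scale, pooled over the 5 lines) against the percent of 75-base transcript windows found in no other gene (x axis) for the 55 members, coloured by mean CPM. The 20 members with at least 99% unique windows have a median variation of 17.2%, and Gm13237, Gm13160, Gm13167 and Angptl7 lie among the most variable.

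Paralogous sequence was common in the interval and went with a wider median spread between libraries of a line. In the 20 members with at least 99% unique 75-base windows, the median within-line coefficient of variation (pooled within-line SD over the mean of the 15 libraries) was 17.2%. It was 41.9% in the 20 members with 50% to 99% unique windows and 55.5% in the 15 members with less. Median levels fell along the same order, at 12.6, 1.26 and 0.719 CPM, and the part of low counts in this spread was not tested. The classes overlapped, with a variation of 9.62% to 219.4% in the first, 9.76% to 203% in the second and 19.0% to 114.8% in the last. The highest value was that of Angptl7, with 100% unique windows and a mean of 0.198 CPM. Zfp984, at 59.1% unique, had a variation of 9.76%.

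The widest spreads among abundant members were those of 2 pseudogenes with close copies. Gm13237, a processed pseudogene with 3.21% unique windows that shared 86.1% with Gm13232 and 52.8% with Hmgb2, a chromatin protein gene, had 52, 221 and 38 counts in parental cells, 543, 322 and 20 in E6.1, 6, 43 and 6 in E6.2, 1104, 419 and 276 in E7.1, and 735, 16 and 6 in E7.2. Gm13160, which shared 36.4% with Gm13237, had 844 counts in replicate 2 of E7.1 beside 42 and 30 in the other E7.1 libraries, and 337 in replicate 2 of parental cells beside 49 and 30. A further 6 members shared over 10% of their windows with Smarca5, which encodes a chromatin remodelling ATPase. Among them Gm13231 had 287, 479 and 60 counts in E6.1 and 36, 525 and 167 in E7.2. Of the 21 pseudogenes without fingers, 18 were tested, with log2 fold changes from -2.80 to 2.49. None of the 18 was called in any clone against parental cells by edgeR, beside 0.295% to 1.22% of all genes.

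**Figure D5:**
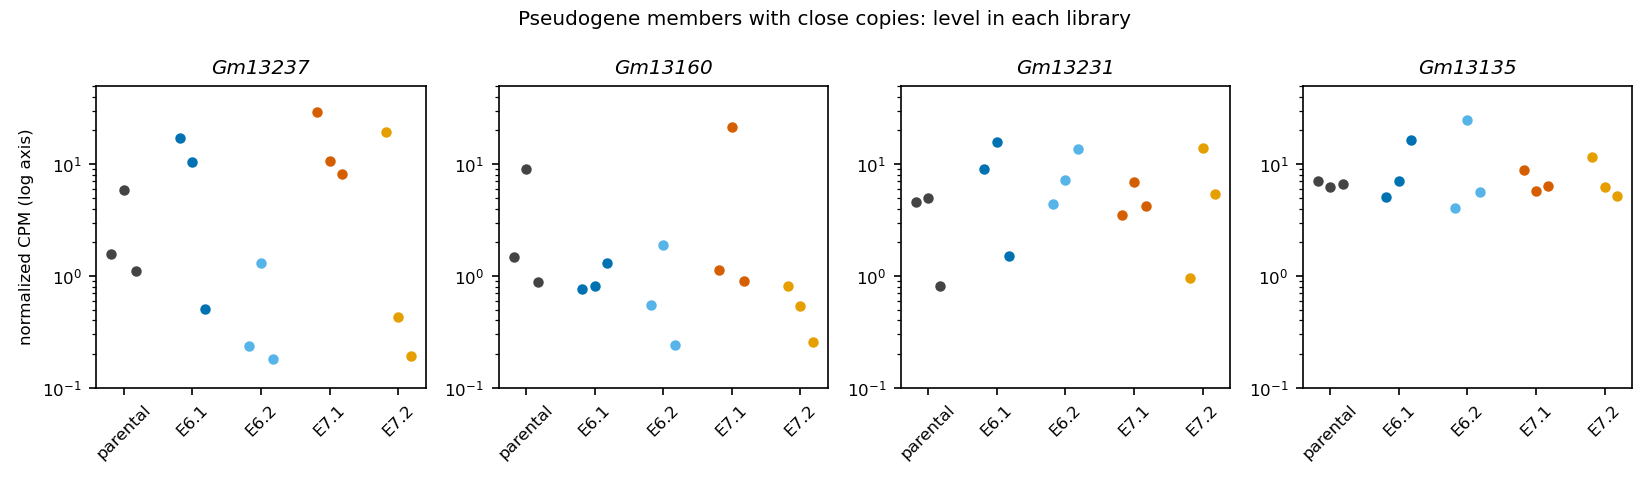
Normalized CPM of 4 pseudogene members with close copies elsewhere in each of the 15 libraries, on a shared log axis; points are libraries. Single libraries stand far from the others of their line, such as 844 counts of Gm13160 in replicate 2 of E7.1 and 735 counts of Gm13237 in replicate 1 of E7.2.

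The partners of KRAB zinc-finger proteins were read beside the cluster. Of 24 such genes tested, none was called in any clone against parental cells by edgeR, beside 0.295% to 1.22% of all genes. With shares this low, 0 calls among 24 genes do not show that they were unchanged. An unadjusted edgeR p below 0.05 was met by 3 for E6.1, 3 for E6.2, 5 for E7.1 and 6 for E7.2. The shares of all genes were 6.71%, 13.1%, 20% and 13.3%. DESeq2 called 3 over the 4 comparisons, beside 1.11%, 2.86%, 8.34% and 1.83% of all genes. Trim28, the KRAB co-repressor, averaged 353 CPM in parental cells and 476 CPM in E7.1 (log2 fold change 0.43, edgeR adjusted p = 0.114), and Setdb1 ranged from 167 to 193 CPM over the clones beside 174 CPM in parental cells. In the test over the 5 lines 2 of the 24 passed, namely Chd3, a remodelling ATPase (edgeR adjusted p = 0.0314), and Mphosph8, a subunit of the HUSH silencing complex (0.0420), which is a share of 8.33% beside 6.28% of all genes.

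Zinc-finger genes with a Zfp symbol outside the interval were read beside the cluster as well. Of 315 tested, 0 were called for E6.1, 1 for E6.2, 4 for E7.1 and 0 for E7.2 against parental cells by edgeR. The shares of all genes were 0.324%, 1.17%, 1.22% and 0.295%, and the 4 in E7.1 are 1.27% of the 315. An unadjusted edgeR p below 0.05 was met by 10, 25, 69 and 57, beside 6.71%, 13.1%, 20% and 13.3% of all genes. In the test over the 5 lines 11 passed, or 3.49% beside 6.28% of all genes. DESeq2 made 37 calls over the 4 comparisons, beside 1.11%, 2.86%, 8.34% and 1.83% of all genes. The median log2 fold change of the 315 genes was -0.00, -0.00, -0.21 and -0.14. Whether the zinc-finger members of the interval differ from these genes was not tested.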

How the data were processed

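Per the labels and file headers, the authors aligned the reads of 15 libraries to mm10 with HISAT and SAMtools and deposited raw counts per gene from featureCounts 1.5.0. The header gives no strand option, so antisense partners cannot be told apart, and reads that map to several places or genes were not counted, which lowers the counts of paralogs. The 92 spike-in rows, all at 0, were left out.

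Counts were tested with edgeR 4.0.16 (R 4.3.3; quasi-likelihood F-test, TMM, filterByExpr by line) in 1 fit over the 13904 genes that passed, with Benjamini-Hochberg adjustment and a threshold of 0.05, and with DESeq2 1.42.0 as an alternative. Scripts were tested on simulated data. CPM values are TMM-normalized, and RPKM divides them by the exonic length in the files. Ratios have exact 95% intervals on summed counts, and the floor is 3 counts over a group. Both cover counting error only.

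Zinc-finger members had a symbol starting with Zfp or at least 2 C2H2 patterns in a frame of their GENCODE M21 transcripts, a rule set after the files were seen because no protein table was used here. Uniqueness is the share of 75-base windows found in no transcript of another gene on either strand, in place of a planned search of the genome. All 55 members matched GENCODE M21 by identifier and bounds.

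Every zinc-finger member, other members called in a clone or over the 5 lines, and the 5 outside genes closest to Zfp990 (1 of which is not reported here) are named, with library values for Zfp990 (called in at least 2 clones) and the 6 next most abundant zinc-finger members. Other members were named after their values were seen. The members and lists were chosen with earlier results of these data known.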

Additional observations from a re-analysis of the deposited data

Results flagged for a closer look

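The clones were compared with one another by edgeR's quasi-likelihood test of the difference itself, adjusted over 13904 genes, and 15 such differences among members passed. Of all genes, 1.24% were called between E6.2 and E6.1, 16.9% between E7.1 and E6.2 and 2.24% between E7.2 and E6.2. No member passed between E7.1 and E6.1, E7.2 and E6.1, or E7.2 and E7.1, beside 3.24%, 0.352% and 0.59% of all genes. Of the 15 differences, 9 belong to Zfp980, Gm21411 and Zfp982, which reached the 50 counts of the selection only through E6.2. Their values are a description and carry no test. Between E6.2 and E6.1 the fitted log2 difference was 5.57 for Zfp980, 5.39 for Gm21411, 4.60 for Zfp982 and -1.36 for Dhrs3, with E6.2 the higher line in the first 3. Between E7.1 and E6.2 it was -7.44 for Zfp980, -7.29 for Gm21411, -5.96 for Zfp982, -0.51 for Zfp984, -1.04 for Gm26880 and -0.50 for Mad2l2, all lower in E7.1, and 2.58 for Tnfrsf8, higher in E7.1. Between E7.2 and E6.2 it was -7.44 for Zfp980, -7.29 for Gm21411 and -5.11 for Zfp982, lower in E7.2, and 1.90 for Dhrs3, higher in E7.2. Fitted values of Zfp980 and Gm21411 against lines with no count depend on the prior count and are no bounds. For the other 6 the edgeR adjusted p ran from 0.00420 for Dhrs3 between E7.2 and E6.2 to 0.0473 for Dhrs3 between E6.2 and E6.1.

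Gm26880, a long non-coding RNA, averaged 10.3 ± 3.05 CPM in E6.2 and 4.99 ± 0.268 CPM in E7.1 (SD, n = 3), with an edgeR adjusted p of 0.0233. Mad2l2, a subunit of the translesion polymerase zeta and of shieldin, averaged 28.0 ± 3.25 and 19.9 ± 2.18 CPM (edgeR adjusted p = 0.0292), and Tnfrsf8 2.81 ± 1.48 and 16.7 ± 6.59 CPM (edgeR adjusted p = 0.0278). In this comparison 16.9% of all genes tested were called. The Gm26880 call was lost without E6.2 replicate 1 or any E7.1 library (edgeR adjusted p between 0.0600 and 0.0904), the Mad2l2 call without E7.1 replicate 1 or 3 (0.123 and 0.0751) and with no filter on low counts (0.124), and the Tnfrsf8 call without E6.2 replicate 1 or 3 or any E7.1 library (between 0.0518 and 0.0791).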

How the results depend on the processing

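With 3 libraries a line, counts of calls among the members moved with most settings. The counts here include Zfp990 and Zfp979, named by the selection, and Zfp980, Gm21411, Zfp982 and Zfp981, which met its minimum through 1 line, so they support nothing about the members. Members called against parental cells (0 for E6.1, 3 for E6.2, 3 for E7.1, 1 for E7.2) became 2 in E6.1 and 3 in E7.2 by DESeq2's Wald test, and 1 in E7.1 with no filter on low counts and with the replicate block. Zinc-finger members called (0, 2, 3 and 1) became 2 in E6.1 and 3 in E7.2 by DESeq2's Wald test, 1 in E6.2 with DESeq2 size factors, with no filter, with the replicate block and without replicate 3 of E6.2 and E7.2 together, and 1 in E7.1 with no filter and with the block. Without both of those replicates, 1 member, a zinc-finger gene, was called in E6.1. Fits of only the 6 libraries compared called 1 member in E6.1, a zinc-finger gene, and 0 in E6.2 and in E7.2. Calls among the KRAB partners (0) became 3 by DESeq2 and 10 without both replicates, and calls of zinc-finger genes elsewhere (5) became 37 by DESeq2, 45 without both replicates, 8 with no filter, 3 with the block and 3 in fits of the 6 libraries. The cause of these shifts was not tested.

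Leaving out 1 library at a time, members called ranged from 0 to 4 in E6.2 and E7.1 and from 0 to 2 in E7.2. In E6.1 they stayed at 0. Zinc-finger members called ranged from 0 to 3 in E6.2 and E7.1 and from 0 to 2 in E7.2. Members passing over the 5 lines ranged from 5 to 9. Called pairs of lines among the 12 zinc-finger members (13) ranged from 6 to 14. They include genes chosen through these counts. KRAB partners called ranged from 0 to 3 and zinc-finger genes elsewhere from 1 to 31. The share of all genes called in these fits is not given, so these ranges show nothing particular to the lists.

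Pairing of libraries by replicate number was looked at in deviations from the line means. Clone libraries correlated with the parental library of the same number at a mean r of -0.0286, 0.134, -0.0127 and 0.101. Over all lines, the mean r was 0.0531 (-0.124 to 0.426) for the same number and -0.0249 (-0.399 to 0.326) for different numbers. Of 15 libraries, 7 correlated best with their own number. These values do not settle whether the numbers pair the libraries, and the main fit used no block. With the replicate block, the comparison of E7.1 with parental cells gave an edgeR adjusted p of 0.0506 for Zfp984, and that of E6.2 with E6.1 gave 0.0812 for Dhrs3.

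Signs turned for log2 fold changes that were not called. Leaving out single libraries gave ranges of -0.14 to 0.26 for Gm13212 in E6.1 and -0.20 to 0.21 in E6.2, -1.87 to 1.90 for Gm21411 in E6.1, -0.24 to 0.32 and -0.89 to 0.35 for Zfp989 in E6.2 and E7.1, -0.84 to 1.26 and -0.025 to 2.08 for Zfp991 in E6.1 and E6.2 and -0.60 to 2.12 and -1.06 to 1.84 in E7.1 and E7.2, -1.13 to 0.18 for Gm13147 in E7.2, -0.21 to 0.0019 for Zfp984 in E6.2 and -0.39 to 0.25 for Zfp933 in E6.2. Zfp989 in E6.2 was -0.040 with the block and -0.0049 without both replicates, Gm13147 in E7.2 was 0.0010 without both replicates, and Zfp933 in E6.2 was 0.016 with DESeq2 size factors, 0.015 by DESeq2, 0.22 without both replicates and 0.013 in the 6 libraries. For the sparse members counting error alone was wide, as in the 95% interval of 4.63 to 21.1 around the 9.27-fold ratio of Zfp982 in E6.2 to parental cells.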
